A study of Mus musculus with 12 samples.

Results

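Expression of 8 genes that carry out or restrain regulated cell death was examined in mouse kidney. They are Ripk1, Ripk3, Mlkl and Casp8 of the necroptosis branch, Bax, Bcl2 and Bcl2l11 of the mitochondrial apoptosis branch, and Acsl4 of ferroptosis. The genes were chosen by name, with earlier results of these data known. All 8 were found by symbol among the 40213 genes listed and passed the low-count filter that left 17841 genes for testing. Whole kidney RNA was sequenced from C57BL/6 mice in 3 groups of 4 libraries. The colchicine mice received colchicine, a tubulin-binding alkaloid, at 0.3 mg/kg/day by intraperitoneal injection together with an adenine diet. The CKD mice, a model of chronic kidney disease, received intraperitoneal saline and a diet with 2% adenine. The control mice received intraperitoneal saline and a normal diet. The labels of colchicine replicates 1, 2, 3 and 4 give 2, 3, 4 and 5% adenine, so only replicate 1 carries the percentage of the CKD label. These percentages rise by 1 with the replicate number and the design text names a single adenine model, so they may be a slip in the labels rather than diets that were fed, and the sources used here do not settle this. The titles number all libraries as replicates and call only those of colchicine biological, without the animals being named. P-values therefore set group differences against the spread among these samples only. All carry 1 batch label. Age, sex and length of treatment were not given in the sources used here.

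Necroptosis is a lytic form of cell death in which RIPK1 and RIPK3 assemble, RIPK3 phosphorylates the pseudokinase MLKL, and MLKL breaches the plasma membrane, while caspase-8 cleaves the receptor-interacting kinases and holds the pathway in check. In mitochondrial apoptosis BIM, the product of Bcl2l11, and other BH3-only proteins release BAX from restraint by BCL2 and its relatives, and BAX then permeabilises the outer mitochondrial membrane. Ferroptosis is death by iron-dependent lipid peroxidation, in which ACSL4 loads polyunsaturated fatty acids into phospholipids and GPX4 detoxifies the lipid peroxides. These pathways are best known in the kidney from acute tubular injury and crystal nephropathy.

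Library totals ran from 22.2 to 38.3 M counts, where M stands for 1000000. Levels are given as counts per M (CPM) scaled by TMM, the trimmed mean of M-values, and are compared between groups within a gene, not between genes. Mitochondrially encoded transcripts took 14.6 to 21.8% of the counts in colchicine, 16.7 to 17.3% in CKD and 41.5 to 46.7% in control libraries. Scaling by library totals alone moved the median log2 fold change of all genes in CKD against control to 1.05, against 0.04 with TMM. Summed proximal tubule markers lay between 580.1 and 1119 CPM in colchicine, 1329 and 1673 CPM in CKD and 14980 and 16296 CPM in control kidneys. All 10 of these markers were called lower in CKD than in control by edgeR. Summed macrophage markers lay between 1159 and 1716 CPM in colchicine, 1768 and 1825 CPM in CKD and 97.7 and 116 CPM in control kidneys, and all 10 were called higher in CKD than in control. Summed fibroblast markers lay between 4109 and 5283 CPM in colchicine, 3313 and 3925 CPM in CKD and 416 and 499 CPM in control kidneys. In CKD against control edgeR also called all 8 fibroblast and 7 of 8 tested T and NK cell markers higher, and 7 of 8 collecting duct and 6 of 8 endothelial markers lower. Of the 8 markers of the loop of Henle and distal tubule, 5 were called lower and 2, Cldn16 and Trpm6, higher.

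In CKD kidneys 6 of the 8 genes rose over control, in the order Ripk3, Mlkl, Acsl4, Bcl2l11, Bcl2 and Bax. For Ripk1 and Casp8 no change was called. Genes counted as called had an adjusted p below 0.05 in edgeR's quasi-likelihood test with Benjamini-Hochberg adjustment over all genes tested. That rule called 34.1% of all tested genes higher in CKD than in control and 33.4% lower, or 67.4% in all, so a call in this comparison is common. At 2-fold or more, 4 members were called higher, Ripk3, Mlkl, Acsl4 and Bcl2l11, as were 18.7% of all genes. No member was lower by edgeR, by DESeq2, by limma-voom or at an unadjusted edgeR p below 0.05, where the count was 0 each time. The median log2 fold change of the 8 members was 0.89, beside 0.04 for all genes tested. The groups did not overlap, with CKD higher, for 7 of the 8 members, as for 33.2% of all genes. In whole tissue, a change in the number of cells of a type and a change in RNA per cell cannot be told apart.

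The kinase RIPK3 and its substrate MLKL are the core of the necroptotic machinery, and their promoters and that of Ripk1 are shown for the motifs they hold. The windows run from 250 bases before to 50 bases after the RefSeq transcription start in the GRCm38.p6 build, which differs from the GRCm39 build used for the counts. The Ripk3 window is at chr14:55788808-55789107 on the minus strand, the Mlkl window at chr8:111338156-111338455 on the minus strand, and the second of 2 Ripk1 windows at chr13:34002624-34002923 on the plus strand. Each is printed from 5′ to 3′ along its own gene, with motif matches in capitals.
Ripk3: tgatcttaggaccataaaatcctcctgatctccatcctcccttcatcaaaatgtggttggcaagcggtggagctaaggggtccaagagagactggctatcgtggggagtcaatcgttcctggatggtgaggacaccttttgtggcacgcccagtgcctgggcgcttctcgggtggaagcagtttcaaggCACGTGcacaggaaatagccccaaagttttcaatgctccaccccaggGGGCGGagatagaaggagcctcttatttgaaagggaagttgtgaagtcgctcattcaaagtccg
Mlkl: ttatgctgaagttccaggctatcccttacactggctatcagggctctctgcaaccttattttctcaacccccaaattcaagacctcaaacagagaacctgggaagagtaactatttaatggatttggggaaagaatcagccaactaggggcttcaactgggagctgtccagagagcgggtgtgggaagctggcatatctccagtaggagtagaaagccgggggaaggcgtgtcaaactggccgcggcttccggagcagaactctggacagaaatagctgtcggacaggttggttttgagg
Ripk1: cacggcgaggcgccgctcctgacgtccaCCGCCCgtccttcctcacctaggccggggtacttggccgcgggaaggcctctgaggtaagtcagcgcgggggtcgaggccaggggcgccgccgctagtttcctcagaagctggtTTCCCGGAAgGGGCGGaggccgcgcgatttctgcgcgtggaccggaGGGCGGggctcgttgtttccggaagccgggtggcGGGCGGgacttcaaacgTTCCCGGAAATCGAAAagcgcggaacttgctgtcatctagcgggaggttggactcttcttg
On both strands, 7 motifs were searched: the interferon-stimulated response element, read as GAAA, NN and again GAAA, the gamma-activated site TTCNNNGAA, the AP-1 site TGANTCA, the GC box GGGCGG, the E-box CACGTG, and the NF-kB consensus and p53 half-site by their usual degenerate letters. These occur in 3.44, 8.3, 7.81, 35.7, 7.15, 4.51 and 8.36% of all 32851 mouse windows of the same length. The Ripk3 window held 1 E-box and 1 GC box, in that order from the 5′ end. None of the 7 motifs was found in the Mlkl window. The Ripk1 window held 4 GC boxes, 2 gamma-activated sites and 1 interferon-stimulated response element, which overlaps the second gamma-activated site. The Ripk1 window had 67.0% GC with 36 CpG dinucleotides, while the Ripk3 window had 52.7% and 10 and the Mlkl window 51.0% and 7, beside medians of 52.67% and 7 over all windows. A match is a run of letters and was not tied to binding in these samples. Among the windows not printed, that of Bax held 1 p53 half-site, 3 GC boxes and 2 E-boxes, that of Bcl2 7 GC boxes and that of Acsl4 2 GC boxes, while that of Casp8 held none of the 7 motifs. Both windows of Bcl2l11 and the first of Ripk1 held GC boxes alone.

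Ripk3 had the highest fold change of the 8 genes in CKD. It stood at 6.68, 5.84, 6.16 and 5.34 CPM in CKD replicates 1 to 4, against 1.11, 0.611, 0.548 and 0.812 CPM in control replicates 1 to 4. The 2 groups were far apart, and the control values rest on only 8 to 19 counts per library. The log2 fold change was 2.95 ± 0.23 (SE), a 7.74-fold higher level, with an edgeR adjusted p of 1.43e-08. This placed Ripk3 in the top 4.36% of all tested genes by fold change.

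Mlkl followed Ripk3. It measured 10.4, 9.37, 8.13 and 8.35 CPM in CKD kidneys, against 2.68, 2.75, 2.33 and 1.91 CPM in control kidneys. Every CKD library was above every control library. Its log2 fold change was 1.90 ± 0.16, or 3.73-fold, with an edgeR adjusted p of 4.03e-08. Macrophage, fibroblast and most T and NK cell markers were also called higher in CKD, as given above. So were all 6 of the 8 neutrophil markers that could be tested, with sums of 90.4 to 124 CPM in CKD and 2.26 to 4.87 CPM in control kidneys. The neutrophil markers Ly6g and Elane were at 0 in at least 1 library. The part of these cells in the change of Ripk3 and Mlkl was not tested.

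The kinase Ripk1, which stands upstream of Ripk3 and also serves as a scaffold for survival signalling, had a small difference that was not called. Its values were 40.4, 41.6, 44.5 and 42.1 CPM in CKD kidneys and 35.3, 36.3, 36.0 and 39.8 CPM in control kidneys. The groups did not overlap, and the log2 difference was 0.19 ± 0.11 (edgeR adjusted p = 0.146). It was called with upper-quartile scaling, at 0.33 (edgeR adjusted p = 0.0074), and with a fit of the 8 libraries alone, at 0.21 (edgeR adjusted p = 0.0058). With library totals it stood at 1.20, near the 1.05 of the median gene. In the GENCODE M21 annotation Ripk1 overlaps Serpinb6a on the opposite strand, a serine protease inhibitor gene with 140.4 CPM in CKD and 41.5 CPM in control kidneys. The use of strand in counting, not given in the sources used here, decides whether reads of these 2 genes were separated.

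Casp8, the protease that restrains necroptosis and initiates death-receptor apoptosis, was not called. It measured 54.7, 60.3, 56.9 and 60.4 CPM in CKD kidneys and 58.2, 57.2, 52.7 and 57.0 CPM in control kidneys. The ranges overlapped, and the log2 difference was 0.05 ± 0.09 (edgeR adjusted p = 0.68). Of the alternatives run, only library totals called it, at 1.06, close to the shift of the median gene.

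**Figure D1:**
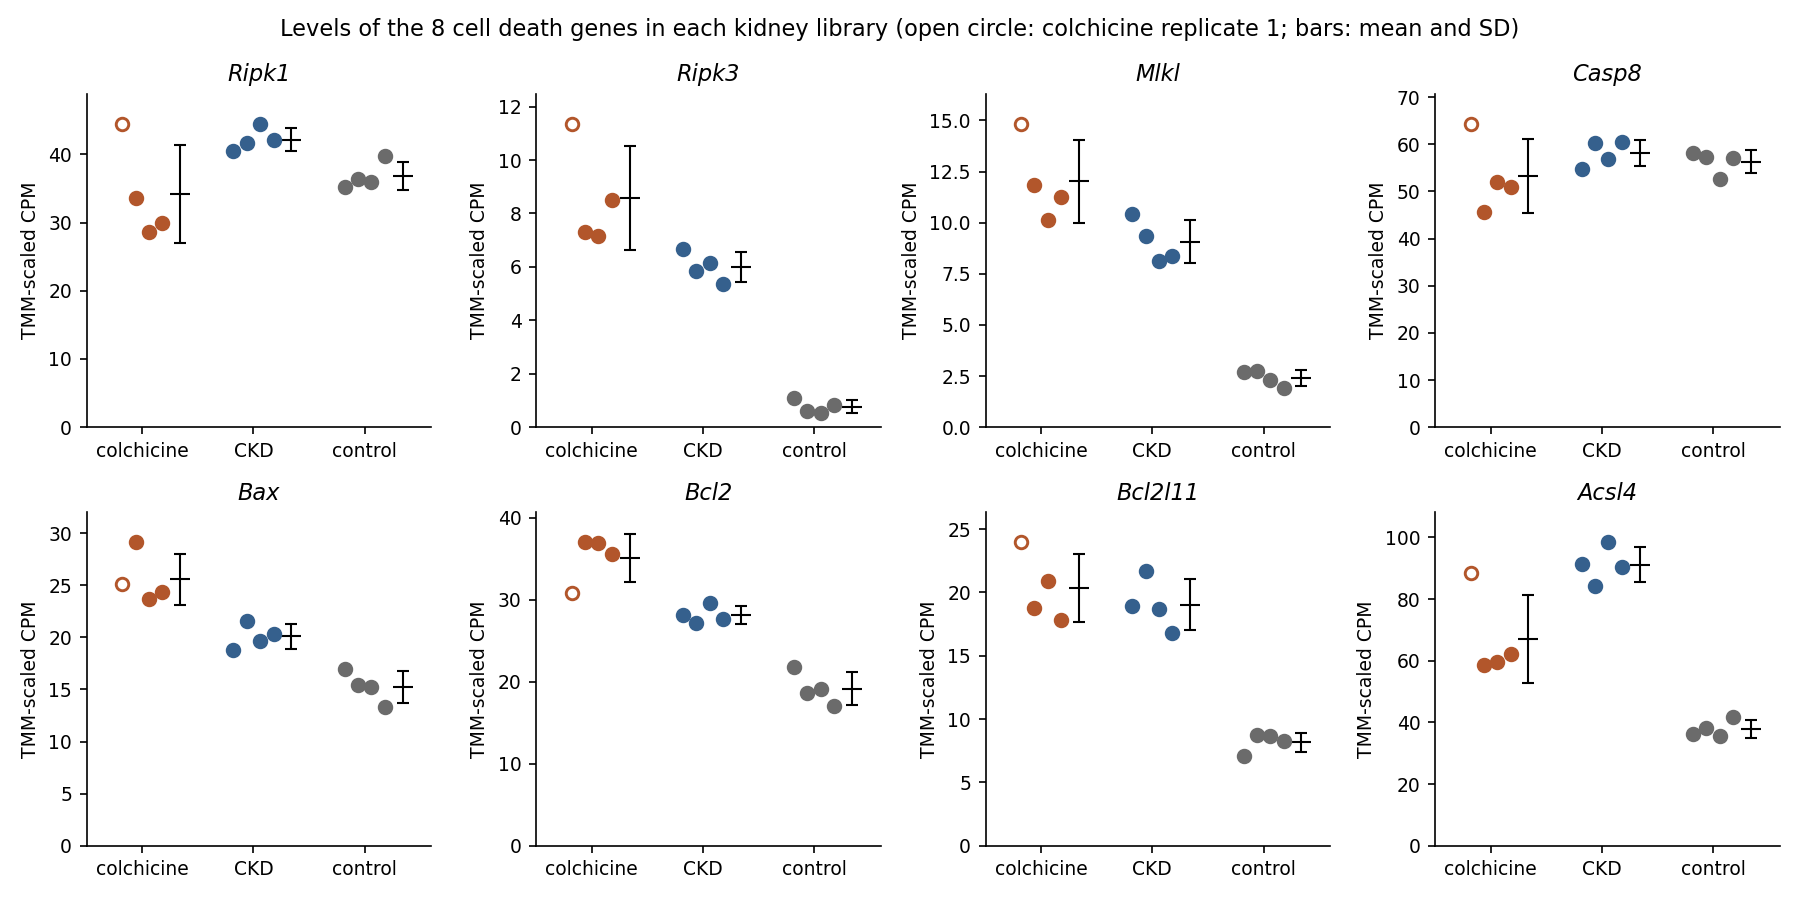
TMM-scaled CPM of the 8 genes in each library, with colchicine, CKD and control from left to right, the black bar giving mean and SD over 4 libraries and the open circle colchicine replicate 1. Ripk3 lies between 5.34 and 6.68 CPM in CKD and between 0.548 and 1.11 CPM in control libraries, and colchicine replicate 1 is the highest colchicine library in 6 of the 8 panels.

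Among the genes of mitochondrial apoptosis, both the initiator Bcl2l11 and its opponent Bcl2 rose in CKD, together with the effector Bax. Bcl2l11, the BH3-only gene that encodes BIM, measured 18.9, 21.7, 18.7 and 16.8 CPM in CKD kidneys, against 7.11, 8.71, 8.63 and 8.23 CPM in control kidneys. Its log2 fold change was 1.22 ± 0.12, or 2.33-fold (edgeR adjusted p = 1.71e-07). The lowest CKD library was well above the highest control library.

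Bcl2, the founding pro-survival member of the family, measured 28.1, 27.1, 29.6 and 27.7 CPM in CKD kidneys, against 21.9, 18.6, 19.1 and 17.1 CPM in control kidneys. All 4 CKD libraries were above all 4 control libraries. Its log2 fold change was 0.55 ± 0.09, or 1.47-fold (edgeR adjusted p = 4.09e-05). Bax, the pore-forming executioner, measured 18.8, 21.6, 19.7 and 20.3 CPM in CKD kidneys, against 17.0, 15.4, 15.3 and 13.3 CPM in control kidneys. The lowest CKD library and the highest control library were close but did not overlap. Bax had the smallest called change of the 6, a log2 fold change of 0.40 ± 0.09, or 1.32-fold (edgeR adjusted p = 0.00144). In the annotation Bax overlaps the predicted gene Gm45808 on the same strand and Bcl2 overlaps the antisense transcript D630008O14Rik, so their counts may include reads of those genes.

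Acsl4, the acyl-CoA synthetase that shapes sensitivity to ferroptosis, measured 91.4, 84.3, 98.4 and 90.5 CPM in CKD kidneys, against 36.1, 38.1, 35.5 and 41.7 CPM in control kidneys. All 4 CKD libraries exceeded all 4 control libraries by a wide margin. The log2 fold change was 1.27 ± 0.12, or 2.41-fold (edgeR adjusted p = 1.66e-07). Each of the 6 calls in this comparison held when any 1 of the 8 libraries was left out, while Ripk1 and Casp8 were called in none of those 8 fits.

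**Figure D2:**
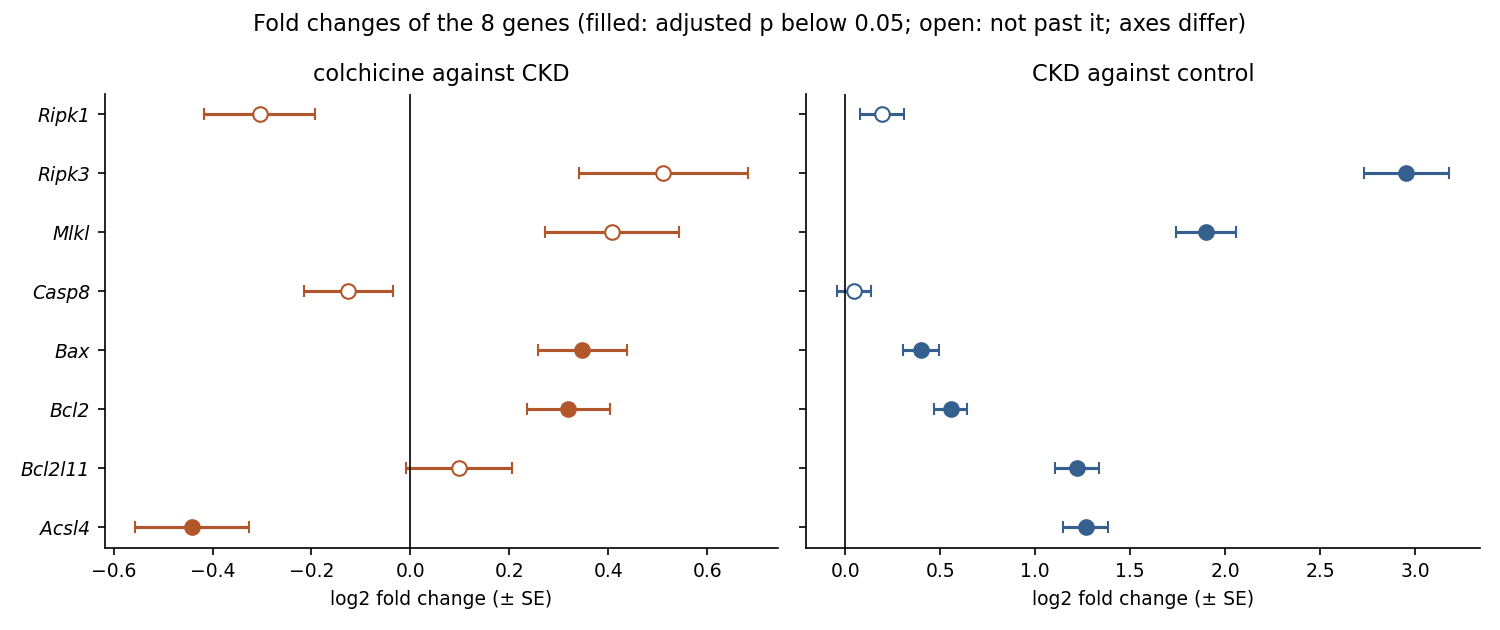
Log2 fold changes with SE of the 8 genes, with colchicine against CKD on the left and CKD against control on the right, on separate scales, where filled points passed an adjusted p of 0.05. Ripk3 at 2.95 and Mlkl at 1.90 stand out on the right, while on the left the called values are Bax at 0.35, Bcl2 at 0.32 and Acsl4 at -0.44.

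Ratios of 2 genes within a library do not depend on how libraries are scaled to one another, and 7 such ratios were described without a test. Their pairs were chosen with earlier results of these data known. In log2 units the ratio of Ripk3 to Ripk1 averaged -2.81 ± 0.16 in CKD and -5.64 ± 0.46 in control kidneys (SD, n = 4 each). For Mlkl against Casp8, executor to brake, the log2 ratio averaged -2.69 ± 0.21 in CKD and -4.55 ± 0.23 in control kidneys. Ripk3 gained more than Mlkl, and the log2 ratio of Mlkl to Ripk3 was accordingly 0.59 ± 0.13 in CKD against 1.69 ± 0.51 in control kidneys. None of these 3 pairs of ranges overlapped.

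The log2 ratio of Bax to Bcl2, often read as the balance of the mitochondrial pathway, was -0.49 ± 0.12 in CKD and -0.33 ± 0.05 in control kidneys, and these ranges overlapped. For Bcl2l11 to Bcl2 it was -0.57 ± 0.18 in CKD and -1.23 ± 0.26 in control kidneys, with no overlap. Casp8 relative to Cflar, the gene of its catalytically inactive partner cFLIP, stood at -0.69 ± 0.04 in CKD and -1.10 ± 0.10 in control kidneys, without overlap. Cflar fell by 0.36 ± 0.07 on the log2 scale in CKD (edgeR adjusted p = 0.000388). Of the 7 ratios that of Acsl4 to Gpx4 differed most in its means, at -0.34 ± 0.11 in CKD and -3.25 ± 0.24 in control kidneys. Gpx4, the lipid peroxide detoxifier, averaged 115 ± 3.93 CPM in CKD kidneys and 362 ± 38.4 CPM in control kidneys, a log2 fold change of -1.65 ± 0.12 (edgeR adjusted p = 7.86e-09).

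**Figure D3:**
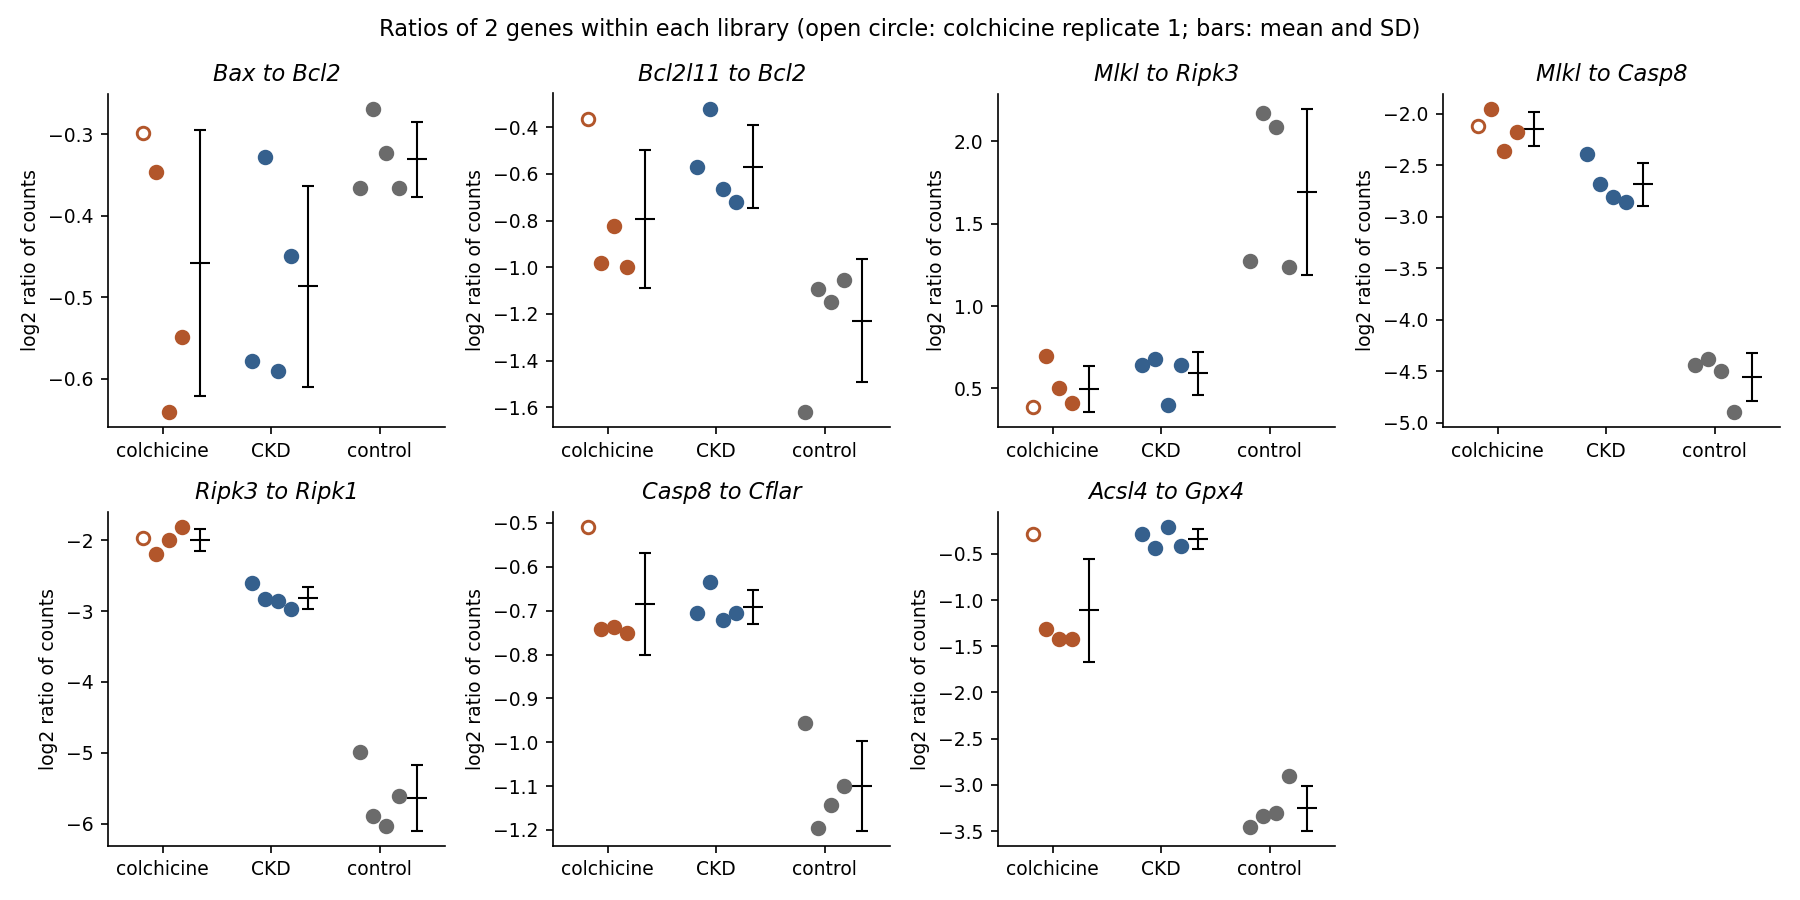
Log2 ratios of the counts of 2 genes within each library, with colchicine, CKD and control from left to right, mean and SD in black, and colchicine replicate 1 as an open circle. The ratio of Acsl4 to Gpx4 averages -1.11 in colchicine, -0.34 in CKD and -3.25 in control libraries, while that of Bax to Bcl2 averages -0.46, -0.49 and -0.33 in the same order.

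The partners of these genes were read from 9 pathway lists of 102 genes, 8 of which stand in more than 1 list. Of 18 necroptosis partners, 9 were called higher and 8 lower in CKD than in control by edgeR, with a median log2 fold change of 0.12. The inflammatory ligand gene Tnf averaged 6.30 ± 1.25 CPM in CKD kidneys and 0.205 ± 0.0994 CPM in control kidneys, a log2 fold change of 4.92 ± 0.28. Its control values rest on only 1 to 5 counts per library. The ubiquitin ligase gene Birc3, which keeps RIPK1 in its survival complex, averaged 64.5 ± 6.5 CPM in CKD and 9.55 ± 0.998 CPM in control kidneys. Its log2 fold change was 2.76 ± 0.11. Ppm1b, a phosphatase gene acting on RIPK3, fell by 0.78 ± 0.07 on the log2 scale and Fadd, the adaptor of caspase-8, fell by 0.47 ± 0.12. With library totals all 18 were called higher, as were 74.0% of all genes, with 10.4% lower. Falls here are therefore relative to the median gene, and in this and the other lists a fall smaller than its shift of 1.05 turns into a rise with library totals.

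Of the 11 death receptors and ligands, 2 were called higher and 4 lower, with a median of -0.15, and library totals gave 10 higher and 1 lower. The receptor genes Tnfrsf10b and Tnfrsf1a rose by 1.25 ± 0.23 and 1.12 ± 0.07 on the log2 scale. Bid, the BH3-only gene that links death receptors to mitochondria, fell by 1.39 ± 0.10, and the ligand gene Tnfsf10 fell by 0.69 ± 0.11.

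In both arms of the BCL2 family more genes were called higher than lower. Of the 6 tested relatives of Bcl2 among the 7 pro-survival genes listed, 4 were called higher and 1 lower in CKD, with a median log2 fold change of 2.49. Bcl2a1a and Bcl2a1b, near-identical paralogs whose reads may be shared, rose by 4.79 ± 0.26 and 4.51 ± 0.16, and their paralog Bcl2a1d by 3.81 ± 0.19. The median leans on these paralogs, and control libraries held only 3 to 7 counts of Bcl2a1a. Mcl1 rose by 1.16 ± 0.09, Bcl2l1 was not called (log2 0.06 ± 0.09) and Bcl2l2 fell by 0.34 ± 0.07. Among 8 tested of 9 pro-death genes, 5 were called higher and 1, Bid, was called lower, with a median of 1.17. The BH3-only genes Bmf and Pmaip1 rose by 1.92 ± 0.12 and 1.91 ± 0.23 on the log2 scale. With library totals the pro-survival list gave 6 higher and 0 lower, and the pro-death list 7 higher and 1 lower. The genes Bcl2l10 and Hrk did not pass the low-count filter.

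Downstream of the mitochondrion the direction was mixed. Of 14 genes of the apoptosome and its executioners, 6 were called higher and 5 lower, with a median of 0.17. Apaf1, the scaffold of the apoptosome, rose by 1.85 ± 0.15 on the log2 scale and the initiator caspase gene Casp2 by 0.82 ± 0.11. Cycs, the cytochrome c gene that Apaf1 protein senses, fell by 2.02 ± 0.12 and the mitochondrial nuclease gene Endog by 1.70 ± 0.14. Of the 8 inhibitors of apoptosis listed, 7 were called higher, as were 34.1% of all genes, and 1 lower, with a median of 2.29. The 7 were the paralogs Naip1, Naip2, Naip5 and Naip6, and Birc2, Birc3 and Xiap. The median leans on the Naip paralogs, and control libraries held only 3 to 7 counts of Naip1 and 9 to 28 of Naip5. The list goes by gene name, and inhibition of apoptosis itself was not measured. Library totals gave 8 higher and 0 lower for this list. For the apoptosome list library totals gave 11 higher and 3 lower. Naip6, whose reads may be shared with its paralogs, rose by 2.99 ± 0.31 from 5 to 16 counts per control library, and Birc6 fell by 0.53 ± 0.09.

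Of 19 genes listed as promoting ferroptosis, 4 were called higher and 6 lower, with a median of -0.16. The metalloreductase gene Steap3 rose by 0.77 ± 0.11 and the metal importer gene Slc39a14 by 0.48 ± 0.18. The transferrin receptor gene Tfrc fell by 2.08 ± 0.14 and the oxidoreductase gene Por by 1.60 ± 0.09. Among 20 defence genes 6 were called higher and 11 lower, with a median of -0.42. Slc7a11, the cystine importer that feeds glutathione synthesis, averaged 14.7 ± 1.88 CPM in CKD and 0.31 ± 0.138 CPM in control kidneys, a log2 fold change of 5.56 ± 0.22. Control libraries held only 2 to 7 counts of Slc7a11 each. Gch1, of the tetrahydrobiopterin pathway, rose by 2.10 ± 0.20. The glutathione synthesis genes Gss and Gclm fell by 2.39 ± 0.08 and 1.73 ± 0.15. With library totals the promoting list gave 16 higher and 2 lower and the defence list 12 higher and 3 lower. Among the relatives of Acsl4, Acsl5 rose by 0.35 ± 0.07 and Acsl1 and Acsl3 fell by 1.32 ± 0.11 and 0.80 ± 0.11, so that 2 of 4 were called higher and 2 lower. Beside all of these lists stand the higher macrophage, neutrophil, fibroblast and T and NK cell marker sums of the CKD kidneys. Their marker sums of the proximal tubule, loop of Henle and distal tubule, collecting duct and endothelium were lower. The part of these cells in the lists was not tested.

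**Figure D4:**
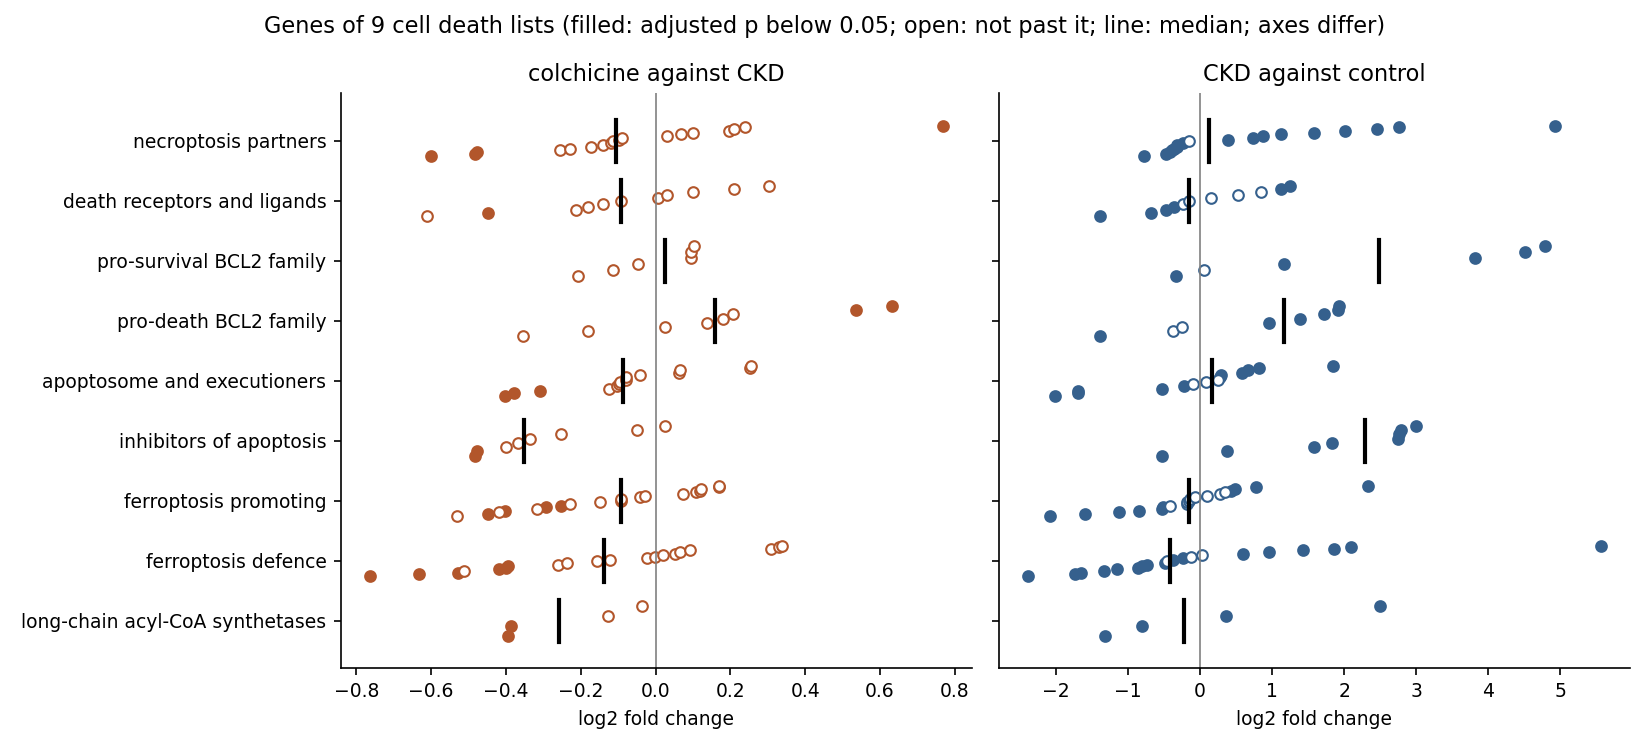
Log2 fold changes of the tested genes of 9 pathway lists, with colchicine against CKD on the left and CKD against control on the right, on separate scales, the black line marking each list's median and filled points an adjusted p below 0.05. In CKD against control the medians run from -0.42 for ferroptosis defence to 2.49 for the pro-survival BCL2 family, a list that holds the paralogs Bcl2a1a, Bcl2a1b and Bcl2a1d.

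With colchicine, Bax and Bcl2 rose over CKD and Acsl4 fell, while Ripk1, Ripk3, Mlkl, Casp8 and Bcl2l11 were not called. Among all tested genes, 6.79% were called higher and 8.24% lower in this comparison, or 15.0% in either direction, beside 2 higher and 1 lower of 8 members. The comparison shares its CKD libraries with the preceding one. The members' median log2 fold change was 0.21, beside 0.03 for all genes. The groups did not overlap, with colchicine higher, for 3 members, Ripk3, Bax and Bcl2, as for 8.92% of all genes. An unadjusted edgeR p below 0.05 was reached by 4 members with colchicine higher, as by 15.8% of all genes, and by 2 with colchicine lower, as by 17.2%. No member reached 2-fold, as did 0.779% of all genes with colchicine higher.

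Bax measured 25.1, 29.1, 23.7 and 24.3 CPM in colchicine replicates 1 to 4, against 18.8, 21.6, 19.7 and 20.3 CPM in CKD replicates 1 to 4. All colchicine libraries were above all CKD libraries. The log2 fold change was 0.35 ± 0.09, or 1.27-fold (edgeR adjusted p = 0.0212). Bcl2 measured 30.9, 37.01, 36.96 and 35.6 CPM in colchicine kidneys, against 28.1, 27.1, 29.6 and 27.7 CPM in CKD kidneys. Its ranges did not overlap, and colchicine replicate 1 was the lowest of the 4. The log2 fold change was 0.32 ± 0.08, or 1.25-fold (edgeR adjusted p = 0.0225). The log2 ratio of Bax to Bcl2 averaged -0.46 ± 0.16 in colchicine and -0.49 ± 0.12 in CKD kidneys, with overlapping ranges.

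Acsl4 measured 88.4, 58.5, 59.5 and 62.2 CPM in colchicine kidneys, against 91.4, 84.3, 98.4 and 90.5 CPM in CKD kidneys. Colchicine replicates 2, 3 and 4 lay below every CKD library, and replicate 1 lay within the CKD range. The log2 fold change was -0.44 ± 0.12, or 1.36 times lower (edgeR adjusted p = 0.022). Without colchicine replicate 1 it was -0.61 (edgeR adjusted p = 4.13e-05), and with that replicate as the only colchicine library it was -0.05 (edgeR adjusted p = 0.873). The log2 ratio of Acsl4 to Gpx4 averaged -1.11 ± 0.55 in colchicine and -0.34 ± 0.11 in CKD kidneys, with overlap. Gpx4 averaged 145 ± 26.3 CPM in colchicine and 115 ± 3.93 CPM in CKD kidneys and was not called (log2 0.33 ± 0.12, edgeR adjusted p = 0.0662).

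Ripk3 measured 11.4, 7.30, 7.15 and 8.49 CPM in colchicine kidneys, against 6.68, 5.84, 6.16 and 5.34 CPM in CKD kidneys. Every colchicine value exceeded every CKD value. The log2 difference of 0.51 ± 0.17 nevertheless stood just outside the threshold (edgeR adjusted p = 0.0558). Mlkl measured 14.8, 11.8, 10.1 and 11.3 CPM in colchicine kidneys and 10.4, 9.37, 8.13 and 8.35 CPM in CKD kidneys. The lowest colchicine library fell just under the highest CKD library, and the log2 difference was 0.41 ± 0.14 (edgeR adjusted p = 0.0554). DESeq2 called both, at 0.49 for Ripk3 (adjusted p = 0.0399) and 0.38 for Mlkl (adjusted p = 0.0493), as did limma-voom, with adjusted p of 0.0412 and 0.0372. When edgeR left out any 1 of the 8 libraries, Ripk3 was called in 0 fits and Mlkl in 1. Without colchicine replicate 1 the log2 differences were 0.34 for Ripk3 and 0.29 for Mlkl (edgeR adjusted p = 0.0802 and 0.0755).

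Ripk1 measured 44.4, 33.5, 28.6 and 29.9 CPM in colchicine kidneys and 40.4, 41.6, 44.5 and 42.1 CPM in CKD kidneys. Replicate 1 was within the CKD range and the other 3 were below it. The log2 difference was -0.30 ± 0.11 (edgeR adjusted p = 0.0769), and DESeq2 called it at -0.33 (adjusted p = 0.0463). Casp8 measured 64.3, 45.7, 51.97 and 50.96 CPM in colchicine kidneys and 54.7, 60.3, 56.9 and 60.4 CPM in CKD kidneys. The log2 difference was -0.13 ± 0.09 (edgeR adjusted p = 0.34), and replicate 1 stood above the CKD range while the others stood below it. Bcl2l11 measured 23.96, 18.7, 20.9 and 17.8 CPM in colchicine kidneys and 18.9, 21.7, 18.7 and 16.8 CPM in CKD kidneys, and its log2 difference was 0.10 ± 0.11 (edgeR adjusted p = 0.537).

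The colchicine libraries thus differed among themselves, with replicate 1 the highest of the 4 for Ripk1, Ripk3, Mlkl, Casp8, Bcl2l11 and Acsl4. That replicate is the only one with the 2% adenine label of the CKD group. If the labels are true, colchicine and adenine percentage cannot be told apart in the other 3. If they are a slip, the percentage is only a replicate number, and neither replicate 1 alone nor a slope on it corrects for diet. Leaving out replicate 1 added calls of lower Ripk1, at -0.46 ± 0.07 (edgeR adjusted p = 0.000254), and lower Casp8, at -0.23 ± 0.07 (edgeR adjusted p = 0.013), and kept those of Bax, Bcl2 and Acsl4. The same fit called 15.9% of all genes higher and 19.4% lower. With replicate 1 as the only colchicine library, whose spread was taken to be that of the other groups, Ripk3 and Mlkl were called, at 0.91 (edgeR adjusted p = 0.0117) and 0.71 (edgeR adjusted p = 0.0248). A slope on the labelled percentage, read at 2% and subject to the same doubt, called only Mlkl of the 8, at 0.61 (edgeR adjusted p = 0.0367).

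The 3 calls in colchicine against CKD lay near the threshold. Leaving out any 1 of the 8 kept the call of Bax in 5 fits, of Acsl4 in 3 and of Bcl2 in 1. Bax was not called without CKD replicate 1 or 3 or colchicine replicate 2, where it lay between 0.28 and 0.34 (edgeR adjusted p = 0.0688, 0.0697 and 0.0772). Acsl4 was not called without CKD replicate 1 or 3 or colchicine replicate 2, 3 or 4, where its log2 fold change lay between -0.44 and -0.38 and the edgeR adjusted p between 0.0504 and 0.0764. Bcl2 was called only without colchicine replicate 1 (edgeR adjusted p = 0.0014), and in the other 7 fits its log2 fold change lay between 0.29 and 0.34 and the adjusted p between 0.0506 and 0.0713. The folds in the fits that lost a call thus stayed close to those with all libraries, 0.35, -0.44 and 0.32 for Bax, Acsl4 and Bcl2.

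**Figure D5:**
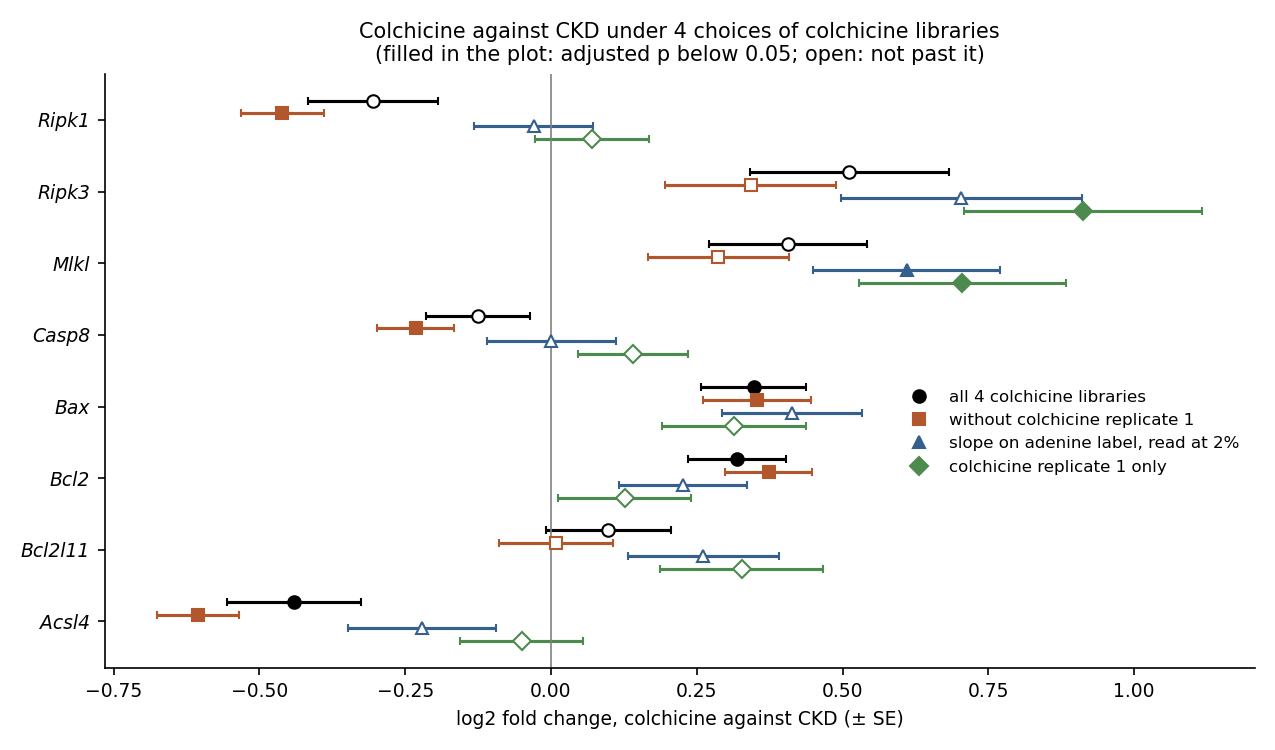
Log2 fold changes with SE in colchicine against CKD for the 8 genes under 4 choices of colchicine libraries, where filled points passed an adjusted p of 0.05. Bax lies between 0.31 and 0.41 in all 4, while Ripk1 lies at -0.46 without colchicine replicate 1 and at 0.07 with that replicate alone.

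Of the 7 within-library ratios, 2 separated colchicine from CKD without overlap, colchicine replicate 1 included. Each sets a member with a positive log2 difference over one with a negative difference, as given above. The ratios thus restate those differences and add no separate result. The log2 ratio of Ripk3 to Ripk1 ran from -2.20 to -1.82 in colchicine and from -2.98 to -2.60 in CKD kidneys. That of Mlkl to Casp8 averaged -2.15 ± 0.17 in colchicine and -2.69 ± 0.21 in CKD kidneys. Macrophage marker sums, given above, were lower in every colchicine library than in any CKD library, and edgeR called 5 of 10 markers lower. The sums rest most on Lyz2, at 588 ± 142 CPM in colchicine and 858 ± 18.9 CPM in CKD kidneys. The means of C1qa and Fcgr1 were instead higher in colchicine than in CKD kidneys. Of the fibroblast markers 3 of 8 were called higher and 0 lower, and their sums rest most on Col1a1, Col1a2 and Col3a1. The means of Pdgfra, Dcn, Lum and Postn were instead lower in colchicine than in CKD kidneys. The part of these cells in the differences of Ripk3 and Mlkl was not tested.

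Of the 100 listed partner genes tested, 3 were called higher and 18 lower with colchicine, or 21.0%, beside 15.0% of all genes. Of the 18 necroptosis partners, 1 was called higher and 3 lower, with a median log2 fold change of -0.11. Zbp1, the nucleic acid sensor that engages RIPK3 directly, averaged 16.5 ± 4.55 CPM in colchicine and 9.65 ± 1.27 CPM in CKD kidneys, a log2 fold change of 0.77 ± 0.20 (edgeR adjusted p = 0.0229). In CKD against control it had also risen, by 2.01 ± 0.24, with 2.38 ± 0.774 CPM in control kidneys. The ubiquitin ligase genes Birc2 and Birc3 fell by 0.48 ± 0.07 and 0.48 ± 0.10, and Tnfaip3, the gene of the deubiquitinase A20, fell by 0.60 ± 0.15. Among the 8 tested pro-death genes 2 rose. Bok, a relative of Bax, rose by 0.54 ± 0.09, and Bbc3, the gene of the BH3-only protein PUMA, rose by 0.63 ± 0.18.

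Of the 6 tested pro-survival relatives of Bcl2, edgeR, DESeq2 and limma-voom each called 0 with colchicine, and 1 had an unadjusted edgeR p below 0.05. Of the 8 inhibitors of apoptosis 2 were called lower by edgeR, Birc2 and Birc3, and 4 by DESeq2 and by limma-voom. In the apoptosome list edgeR called 3 of 14 lower, but 2 with library totals and 1 with upper-quartile scaling. Aifm1 fell by 0.40 ± 0.08, Cycs by 0.38 ± 0.11 and Parp1 by 0.31 ± 0.10, and in the death receptor list Tnfrsf21 fell by 0.45 ± 0.11. In the ferroptosis lists 4 of 19 promoting genes and 6 of 20 defence genes were called lower by edgeR, as were 8.24% of all genes. DESeq2 called 7 promoting and 8 defence genes lower, and limma-voom 6 and 7. Both methods also called more of all genes in this comparison than edgeR, as given below, so their larger counts in these lists are no added evidence. Por fell by 0.45 ± 0.09, the phospholipid remodelling gene Lpcat3 by 0.40 ± 0.08, Elovl5 by 0.29 ± 0.08 and Sat1 by 0.25 ± 0.08. Among defence genes Gclc fell by 0.76 ± 0.17 and Slc7a11 by 0.63 ± 0.14. Acsl1 and Acsl3 fell by 0.39 ± 0.11 each, as Acsl4 had, so that 2 of the 4 relatives of Acsl4 were called lower. Of the proximal tubule markers, whose sums are given above, 5 of 10 were also called lower with colchicine. So were 5 of 8 markers of the loop of Henle and distal tubule, with 1 higher, and 2 of 8 of the collecting duct. The part of these cells in the falls was not tested.

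Against control, 6 members were called higher in colchicine kidneys, where 37.1% of all genes were. The count called lower was 0 by edgeR, DESeq2, limma-voom and at an unadjusted edgeR p below 0.05, but 2, Ripk1 and Casp8, without colchicine replicate 1 (edgeR adjusted p = 0.00332 and 0.0195), a fit that called 34.8% of all genes lower and 38.4% higher. At 2-fold or more, Ripk3, Mlkl and Bcl2l11 were called, as were 21.1% of all genes. In either direction 70.5% of all genes were called, with 33.4% lower, and the groups did not overlap, with colchicine higher, for 6 members and 32.2% of all genes. Ripk3 stood at a log2 fold change of 3.46 ± 0.22 (edgeR adjusted p = 1.73e-09) and Mlkl at 2.31 ± 0.16. Acsl4 stood at 0.83 ± 0.12, Bcl2l11 at 1.32 ± 0.11, Bcl2 at 0.87 ± 0.09 and Bax at 0.75 ± 0.09. Mean levels were thus in the order control, CKD, colchicine for Ripk3, Mlkl, Bax, Bcl2 and Bcl2l11, with CKD and colchicine not separated by the test for Ripk3, Mlkl and Bcl2l11. For Acsl4 the order was control, colchicine, CKD. For Ripk1 and Casp8 it was colchicine, control, CKD, with no neighbours called different.

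The genes with profiles most like each member over the 12 libraries were found by the root mean square distance between log2 CPM values centred on each gene's own mean, among 13197 genes. For Ripk3 they were Kdelr3, Loxl2 and Col5a2 at 0.18, 0.20 and 0.21, and for Mlkl Lgals9, Snai1 and Itga5 at 0.16, 0.17 and 0.17. Acsl4 was nearest to Itgav, Tmem123 and Ctps at 0.091, 0.10 and 0.11. For Bax these were Capzb, Parvb and Rps24, for Bcl2 Cfl1, Rbms1 and Wtip, and for Bcl2l11 Coro2a, Llgl1 and Znrf1, with distances from 0.046 to 0.11. Ripk1 was nearest to Stx12, Ppp3r1 and Sec23ip and Casp8 to Zcchc9, Abi2 and Brix1, with distances from 0.064 to 0.069. Of the 28 pairs of members, Bax and Bcl2 were closest at 0.12 and Ripk3 and Casp8 farthest apart at 1.53.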

How the data were processed

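RNA was sequenced from 12 kidney libraries, grouped by their titles. Extraction used RNAiso Plus and library preparation the CORALL kit, as stated in the labels. The submitters' processing notes name fastp, STAR, Salmon and GRCm39, with versions and annotation not given in the sources used here. Deposited values are the authors' gene-level estimated counts (expected counts) in whole numbers, so no further rounding was done. Library totals of 22.2 to 38.3 M counts (M, 1000000) set the precision, which among the 8 members was least for Ripk3 in control libraries. Some listed partners had fewer control counts still, among them Tnf, Slc7a11 and Bcl2a1a.

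In edgeR 4.0.16 (R 4.3.3), filterByExpr with a minimum count of 10 left 17841 genes, libraries were scaled by TMM and all 12 libraries entered 1 robust quasi-likelihood fit with a mean for each of the 3 groups. Tests were two-sided F tests with Benjamini-Hochberg adjustment over all genes, called at an adjusted p below 0.05. SE is the log2 fold change divided by the square root of F. Log2 ratios were taken from counts. Scripts were tested on simulated data. Alternatives were DESeq2 1.42.0, limma 3.58.1 voom, other scaling and filters, a 2-fold threshold, the replicate block, an adenine slope and leaving out each library. Replicates within each group differed beyond sampling noise. Overlapping gene names came from GENCODE M21 and promoters from RefSeq, where all 8 genes matched.

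The members, lists and ratio pairs were chosen with earlier results of these data known. The text names all members; from each list it names the 2 called genes with the largest increase and the 2 with the largest decrease in CKD against control at a mean count of 50 or more, and the genes called with colchicine, of which it gives those with the largest changes where a list has more than 4. Gpx4 and Cflar are named for the ratios, and further genes of the pro-survival and inhibitor lists to show what their counts and medians rest on.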

Additional observations from a re-analysis of the deposited data

Results flagged for a closer look

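Among 45 sets of 4 libraries, a library far from the other 3 was found in 5, and chance alone flags about 1 in 20 such sets. In each, the share of the range taken by the gap to the nearest library exceeded Dixon's critical value.

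In 3 of the 5 the outlying library was colchicine replicate 1. Its Acsl4 level of 88.4 CPM stood above the other colchicine libraries, which had 58.5 to 62.2 CPM. Its log2 ratio of Acsl4 to Gpx4 of -0.29 was high, with the others between -1.43 and -1.31, and its log2 ratio of Casp8 to Cflar of -0.51 was high. The remaining pair concerns ratios of apoptosis and necroptosis genes. The log2 ratio of Bcl2l11 to Bcl2 in control replicate 1 was low at -1.62, and the log2 ratio of Mlkl to Ripk3 in CKD replicate 3 was low at 0.40.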

How the results depend on the processing

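Differences between colchicine and CKD rest on small folds and on few libraries, and colchicine replicate 1 decides several of them. Ripk3 in control libraries has too few counts for a precise fold. The causes of the changes below were not tested. In CKD against control the calls of the 6 members held under every alternative with no fold threshold, and a 2-fold threshold lowered the genes called to 6068, against 12028. In colchicine against CKD the main test called 2682 genes, with 2 members higher and 1 lower. Members called higher numbered 4 with upper-quartile scaling, library totals, a minimum count of 50, DESeq2 and limma-voom, where 2949, 2343, 3028, 3805 and 3359 genes were called in all. They numbered 1 with the adenine slope read at 2% and 0 at 2-fold. Members called lower numbered 2 with DESeq2, and 0 with the slope, with colchicine replicate 1 alone and at 2-fold. Genes called numbered 1008 with the slope, 1181 with colchicine replicate 1 alone and 284 at 2-fold. With 1 library left out they ran from 992, without CKD replicate 3, to 6401, without colchicine replicate 1, members higher from 0 to 2 and members lower from 0 to 3. In colchicine against control a 2-fold threshold gave 3 members higher, against 6, and 6584 genes called, against 12576, while leaving out 1 library gave 0 to 2 members lower.

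Changes of sign concerned Ripk1 and Casp8. In colchicine against CKD the log2 fold change of Casp8 was 0.00069 with the slope and 0.14 with colchicine replicate 1 alone, where that of Ripk1 was 0.070. In colchicine against control Ripk1 and Casp8 stood at 0.079 and 0.11 with upper-quartile scaling, 0.92 and 0.96 with library totals, 0.16 and 0.046 with the slope, and 0.31 and 0.23 with colchicine replicate 1 alone. The 7 ratios moved by less than 1 SD when a library was left out and with a pseudocount of 1.

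Same-numbered replicates did not consistently deviate together. Correlations of their deviations from the group means lay between -0.28 and 0.19, and no comparison had all 4 positive. Between control and CKD all 4 were negative, and in the other comparisons the signs were mixed. With so few replicates this cannot exclude a pairing, and the main fit used none. With the replicate block, colchicine against CKD called 1756 genes, among them Bax, Mlkl and Acsl4 but not Bcl2. It changed no member's call in the other comparisons.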
